A study of Glycine max with 6 samples.

Results

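The 47 soybean (Glycine max) probe sets described here read far higher in the paraveinal mesophyll (PVM) than in the palisade parenchyma (PP) of mature leaves. They were chosen from 37593 soybean probe sets on the deposited intensities. The lowest of the 3 PVM values had to be at least 150 and at least 4 times the highest of the 3 PP values. Before exclusions 54 probe sets met these limits, 0.144% of the soybean probe sets, and 7 of them were left out by gene name (WRKY37, CYP93E1, MYB145, LOC547835, AMS1 and both probe sets of SGT2). The rule used the PVM to PP contrast itself, so every PVM to PP value of the 47 is a description and carries no test. Plants were untreated and grew in chambers, and cells of either layer were cut by laser from paraffin sections of leaves fixed in ethanol and acetic acid. Each layer was sampled 3 times, and cells were pooled within a sample before RNA extraction and amplification. The labels give no cultivar, plant age or link between a PVM and a PP sample. In the labels, the palisade samples carry a description that speaks of paraveinal cells, whereas title, source name and cell type all say palisade and decided the grouping.

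The paraveinal mesophyll is a layer of laterally spreading cells between palisade and spongy mesophyll in leaves of soybean and some other legumes. It lies in the plane of the veins and is known for vacuoles that fill with vegetative storage proteins and lipoxygenases, and for a part in the leaf's nitrogen and assimilate traffic. The palisade is the upper layer of columnar photosynthetic cells.

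The layers were checked against markers of the cell types they are labelled as. Probe sets for the storage proteins VSPA and VSPB and for LOXB1, LOX7 and LOX9 were 24, of which 23 were tested, and all 23 had a higher mean in PVM, deposited or normalized. At an unadjusted p under 0.05 limma gave 20 of them higher, and after adjustment it called 0. Their summed intensity spanned 96495 to 108390.0 among PVM samples and 42257 to 63721 among PP samples. For chlorophyll-binding proteins and Rubisco activases, the sums of 13 probe sets spanned 66921 to 94012 among PVM samples and 108409 to 121994 among PP samples on the deposited scale. That separation depended on the scale, since 2 of the 12 tested had a higher PVM mean as deposited and 4 of 12 after normalization, where the median log2 difference was -0.24. After normalization 8 of the 12 were lower in PVM, most so RCAALPHA at -0.68 and RCA11 at -0.61, and the 4 higher reached 0.57 for RCABETA. The bright probe sets of LHCP differed by 0.06 and 0.12 and the brightest of CAB3 by -0.03. By limma 0 of the 12 were lower in PVM, either after adjustment or at an unadjusted p under 0.05. Phloem markers were the sucrose transporter SUT1 and the sucrose synthase SS, with 6 probe sets whose sums spanned 366 to 2182 among PVM samples and 391 to 535 among PP samples. The top of that PVM range came from PVM array 1, where the brightest SS probe set read 785, against 13.9 and 13.5 on PVM arrays 2 and 3. Of the 5 tested, 4 had a higher PVM mean and 1 a lower one, with a median log2 difference of 0.69. At an unadjusted p under 0.05 limma gave 1 of the 5 higher, and after adjustment it called 0. Another SS probe set read 117, 38.0 and 72.9 in PVM and 4.45, 13.6 and 12.6 in PP, where no array exceeded background. It passed the filter through PVM alone, so nothing is read from the count of 1 higher. Lists for xylem and for epidermis and guard cells matched no symbol. The part of other cell types in the values below was not tested. In pooled cells, fewer cells of a type and less RNA per cell cannot be told apart. Correlations between arrays over tested probe sets ran from 0.811 to 0.885, apart from PP arrays 1 and 2, which stood closer together at 0.947. The PVM arrays correlated with each other at 0.8468, 0.8475 and 0.8701, and with PP array 1 at 0.8723, 0.8558 and 0.8779. Over all tested probe sets, PVM arrays thus resembled each other no more than they resembled PP array 1.

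Intensities are the deposited linear values, listed in the order of arrays 1, 2 and 3 of a layer. The array also carries 23350 probe sets for other organisms, and the 95th percentile of their values on an array served as its background, which ran from 11.0 on PVM array 2 to 20.7 on PP array 3. All 47 probe sets lay far above it on the PVM arrays. In PP, 3 of the 47 were at or below background on all arrays, 6 on 2 arrays, 11 on 1 array and 27 on no array. Most of the 47 were thus measured in PP too, and they are described here as higher in PVM and not as absent from PP.

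**Figure D1:**
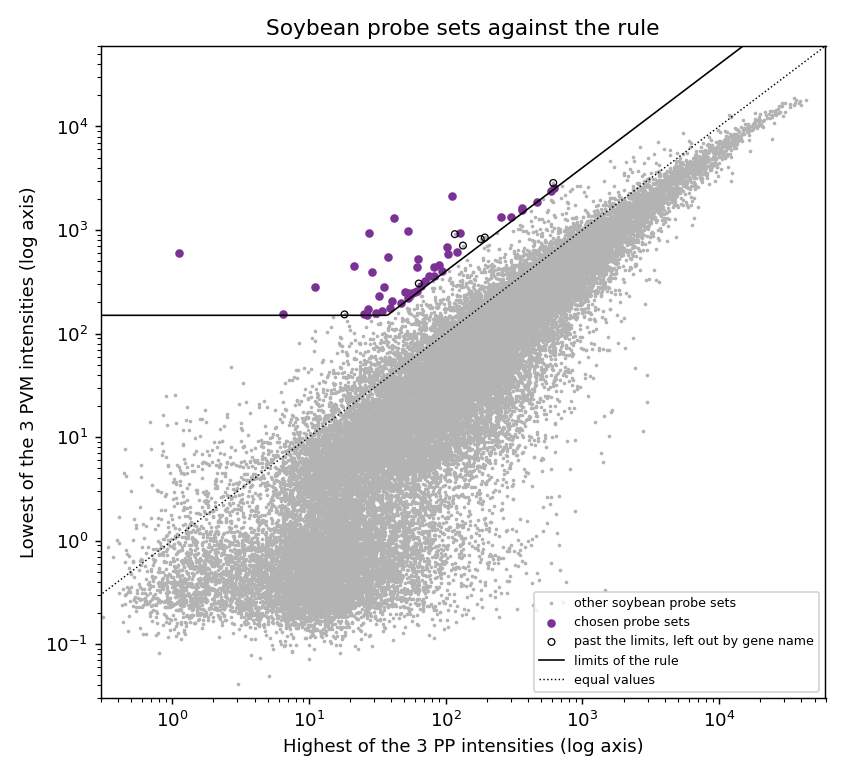
Lowest PVM intensity against highest PP intensity of each soybean probe set, both on log axes. The 47 chosen probe sets (filled) lie above the solid line that marks the limits of 150 and 4 times, and the 7 left out by gene name (open circles) lie there too.

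The mean PVM intensity of the 47 ran from 163 to 3749 with a median of 559, and 14 of them were above 1000. The median over all 25314 tested probe sets was 146, and 11.5% of them were above 1000. The floor of the rule by itself puts every member above that median. Tested probe sets did not have to meet the floor, so nothing is read from either comparison. Mean PP intensities of the 47 ran from 0.707 to 555, with a median of 42.2. The ratio of the lowest PVM to the highest PP value had a median of 5.10, and was under 5 for 21 probe sets, between 5 and 10 for 16 and at least 10 for 10. On quantile-normalized log2(intensity + 16) values, PVM minus PP ran from 2.11 to 6.26 with a median of 3.13, beside a median of -0.06 over all tested probe sets. That scale understates the difference of dim probe sets. By the rule's construction all 3 PVM values lay above all 3 PP values for the 47, as they did for 8.6% of tested probe sets.

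**Figure D2:**
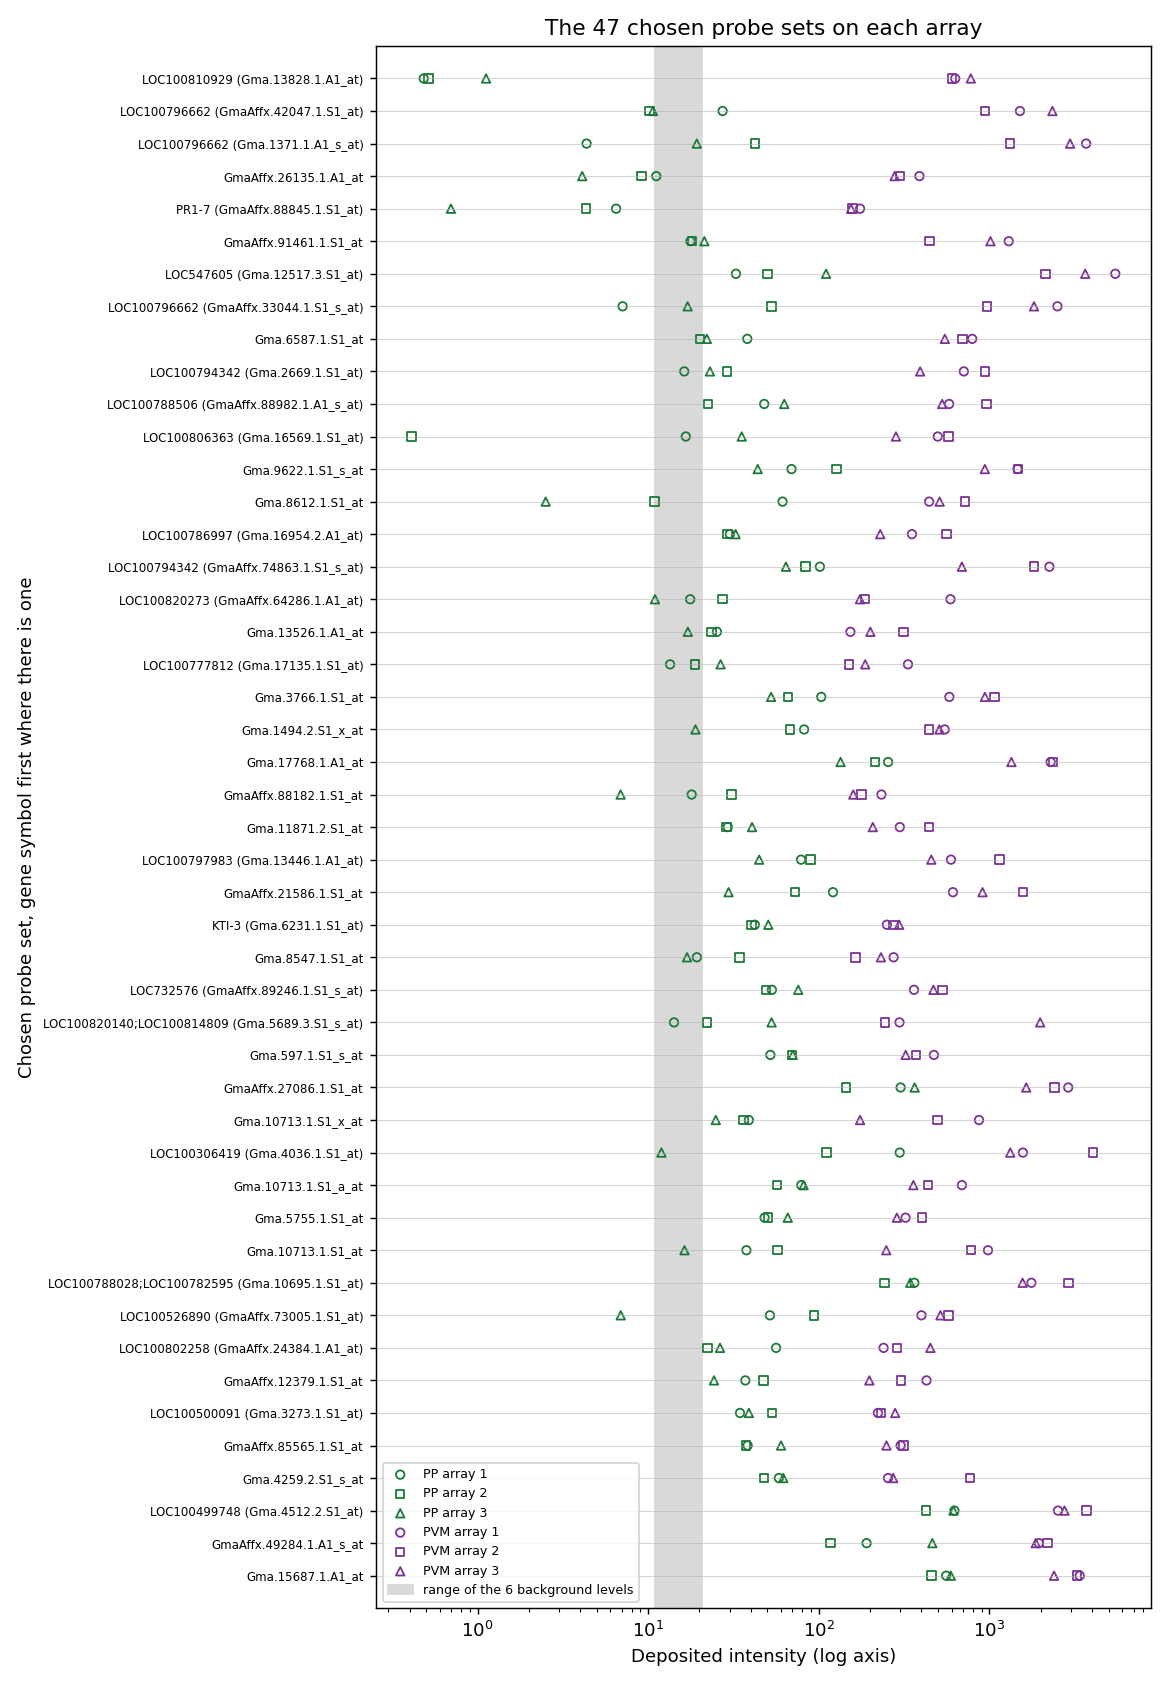
Deposited intensity (log axis) of the 47 chosen probe sets on each of the 6 arrays, ordered by the ratio of the lowest PVM to the highest PP value. PVM values (purple) start at 150 and lie right of all PP values (green), and the PP values of 3 probe sets lie at or below background (grey band) on every array.

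Defence proteins were represented by PR1-7 and KTI-3. PR1-7 belongs to the pathogenesis-related protein 1 family, small secreted proteins whose transcripts rise during defence responses in many plants. Its chosen probe set read 175, 158 and 155 in PVM and 6.49, 4.31 and 0.698 in PP. The 3 PVM values lay closer together than those of any other chosen probe set, the highest being 1.13 times the lowest. No PP value exceeded background, so PR1-7 was at least 5.13-fold higher in PVM after normalization. Another probe set of PR1-7 read 369, 35.7 and 446 in PVM and 7.57, 0.620 and 0.764 in PP. It also had no overlap and was at or below background on every PP array, but PVM array 2 fell under the limit of 150, so it was not chosen. In the RefSeq gene order of the assembly Glycine_max_v4.0, PR1-7 lies between PR1-6 and PR1-8, neither of which has a probe set assigned here.

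KTI-3 encodes a Kunitz trypsin inhibitor, a class of proteins that block serine proteases and that soybean also stores in its seeds. It read 251, 275 and 296 in PVM and 42.2, 40.3 and 50.6 in PP, or 274 ± 22.7 against 44.4 ± 5.49 (mean ± SD, n = 3 arrays). The log2 difference was 2.21 (SE 0.32). Both layers were tight and PP stayed above background on every array. The other KTI-3 probe set, whose name marks sequence shared with other transcripts, differed by 1.42.

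Of the 18 genes named by a symbol, LOC100500091 carries the synonym GmYABBY11. YABBY proteins are plant transcription factors, and in Arabidopsis several of them are expressed on the lower, abaxial side of leaves and act in leaf polarity. The YABBY probe set read 222, 231 and 280.4 in PVM and 34.6, 53.2 and 38.9 in PP. It had the smallest log2 difference of the 47, 2.11 (SE 0.32), with little spread in either layer and PP values above background.

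The largest differences belonged to genes that carry only a LOC number and whose function the tables at hand do not give. LOC100810929 read 631, 605 and 779 in PVM and 0.484, 0.515 and 1.12 in PP. Its PP values all lay far below background, so only a bound can be given, at least 20.1-fold higher in PVM after normalization. With PP values raised to background, its lowest PVM value was 29.3 times the highest PP value, behind 2 probe sets of LOC100796662 at 34.5 and 31.3 times. Another probe set with the same cluster number in its name and no symbol read 272, 16.6 and 179 in PVM and 2.51, 1.5 and 1.37 in PP. It was likewise below background throughout PP, while PVM array 2 was low.

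LOC100796662 was the gene with the most chosen probe sets, 3 of 3 assigned to it. The probe set Gma.1371.1.A1_s_at read 3692, 1320.5 and 2973 in PVM and 4.36, 42.2 and 19.3 in PP, the largest log2 difference of the 47 at 6.26 (SE 0.55). On GmaAffx.33044.1.S1_s_at the PVM values were 2507, 971 and 1826 and the PP values 7.08, 52.9 and 17.0, a difference of 5.58 (SE 0.55). Its remaining probe set, GmaAffx.42047.1.S1_at, carries no mark for shared sequence and gave 1511, 942 and 2342 against 27.3, 10.2 and 10.7, a difference of 5.73 (SE 0.45). PVM array 2 was the lowest PVM array on each of the 3. On each, 2 PP arrays did not exceed background, which ties the sizes to near-floor readings, and the PP array above background was array 2 on the first 2 probe sets and array 1 on the last.

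LOC100794342 was chosen on both of its probe sets. Gma.2669.1.S1_at read 708, 940.0 and 393 in PVM and 16.3, 29.0 and 23.0 in PP, and differed by 4.11 (SE 0.40). The brighter probe set, GmaAffx.74863.1.S1_s_at, read 2248, 1830.5 and 690.1 and 102, 83.4 and 64.2, a difference of 3.86 (SE 0.49). PVM array 3 was the lowest PVM array on both, and all PVM values lay far above PP.

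The brightest of the 47 was a probe set assigned to LOC547605, with 5473, 2128 and 3647 in PVM and 32.7, 50.2 and 110.4 in PP, all above background, and a log2 difference of 5.67 (SE 0.56). It stood apart from the gene's other probe sets. The 9 others, 8 of them tested, differed by -0.83 to 1.09. Among these, Gma.289.1.S1_s_at read 16008, 14229 and 18370.0 in PVM and 21724, 23362 and 25587 in PP and differed by 0.03. In the RefSeq gene order LOC547605 lies beside RBCS2, a Rubisco small subunit gene by its symbol. The chosen value therefore stands for that probe set and not for the gene.

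LOC100306419 was bright and uneven, with 1572, 4046 and 1326 in PVM and 298, 111 and 12.0 in PP, where array 3 was below background. Its log2 difference was 4.40 (SE 0.91), with the largest SE of the 47. Of its nearest protein-coding neighbours in the RefSeq order, LOC100500541 on the next place read 302, 388 and 128 in PVM and 16.1, 39.3 and 34.9 in PP. LOC100306135, on the third place, read 192, 142 and 51.2 and 28.3, 18.8 and 13.9. Neither met the rule, since the lowest PVM value was 3.25 and 1.81 times the highest PP value and also under 150, but all PVM values lay above all PP values in both. On the other side, LOC100804054 differed by 0.09. Over the 18 member genes, the 3 neighbours on each side were looked up. Only 16 of these 108 genes had a probe set, and 15 neighbouring probe sets were tested. Their median log2 difference was 0.17, beside -0.06 over all tested probe sets. Of the 15, 3 exceeded 1, both genes above and LOC100306701, near LOC100820273, at 1.05. The same share over all tested was not counted, so nothing is read from that count.

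The remaining 10 member genes carry LOC numbers with no role in the tables at hand. LOC100499748 was the brightest of these, with 2525, 3717 and 2756 in PVM and 624, 424 and 616 in PP. Its other probe set was brighter still and turned the other way, at 4044, 5269 and 6201 in PVM and 7267, 8555 and 9697 in PP on the deposited scale, a log2 difference of -0.37. The probe sets of this gene thus disagree. LOC100797983 read 596, 1145 and 457 in PVM and 78.8, 89.7 and 44.7 in PP, highest on PVM array 2. LOC100788506 read 581, 959 and 529 in PVM and 47.9, 22.4 and 62.8 in PP, and its other probe set was at or below background on all PP arrays and on PVM array 3. LOC100526890 read 399.9, 577 and 517 in PVM and 51.7, 93.7 and 6.91 in PP, with PP array 3 below background. In these last 3 genes PVM array 2 gave the highest value and the layers were far apart.

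LOC732576 read 362, 532 and 470.1 in PVM and 53.1, 48.9 and 75.8 in PP, and its other probe set differed by 2.35 against 2.58. LOC100806363 read 498, 577 and 283 in PVM and 16.6, 0.410 and 35.3 in PP. For LOC100786997 the PVM values were 352, 561 and 229 and the PP values 30.1, 29.2 and 32.5. The PP values of LOC100786997 were nearly the same on all arrays, whereas LOC100806363 was above background on PP array 3 alone. LOC100802258 read 239.9, 287 and 451 in PVM and 56.2, 22.3 and 26.4 in PP. LOC100820273 read 592, 187 and 174 in PVM and 17.6, 27.3 and 11.0 in PP. LOC100777812 read 333, 151 and 187 in PVM and 13.4, 18.8 and 26.6 in PP. Both of the latter were highest on PVM array 1 and dim, with PVM values near the limit of 150 on the other arrays. The other probe set of LOC100777812 differed by -0.14 and was dim in both layers.

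Agreement between probe sets of a gene was mixed. The 7 member genes with further probe sets had 15 of them, of which 8 had a higher PVM mean after normalization and 6 as deposited. The sign turned for 2 bright probe sets of LOC547605, Gma.289.1.S1_s_at and GmaAffx.1301.2.A1_at. Without LOC547605, 4 of 6 were higher on either scale, those of PR1-7, KTI-3, LOC732576 and LOC100788506. These probe sets share the samples and the contrast of the rule, so they describe how the array reads a gene and add no independent measurement.

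**Figure D3:**
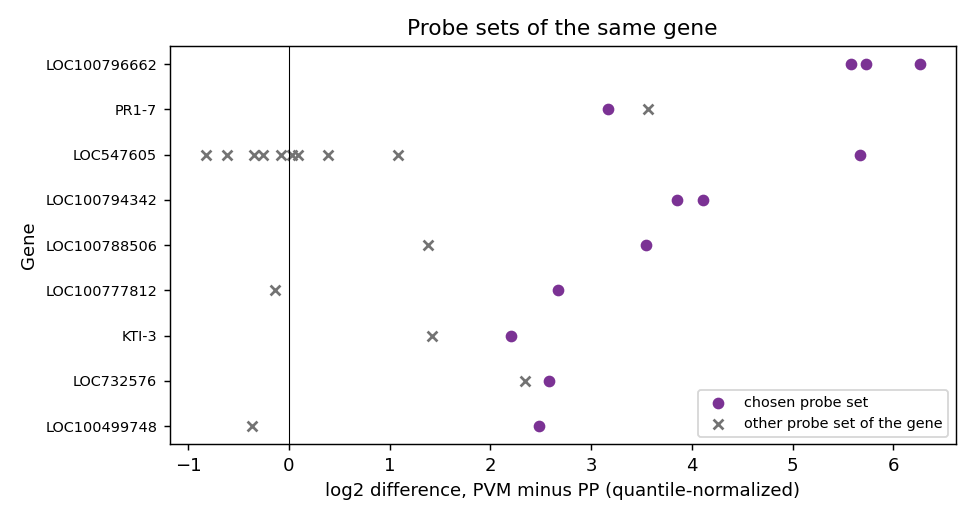
Log2 difference, PVM minus PP, of every probe set of the 9 member genes with more than 1 probe set. Chosen probe sets (filled circles) lie between 2.21 and 6.26, and the other probe sets of LOC547605 (crosses) lie between -0.83 and 1.09.

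A further 24 chosen probe sets have no symbol in the annotation, and 2 carry several symbols and are unnamed here. The 6 without a symbol that had the highest ratio of lowest PVM to highest PP value are given by their probe set names. GmaAffx.26135.1.A1_at read 389, 299 and 279 in PVM and 11.2, 9.16 and 4.11 in PP, with every PP array at or below background, and was at least 9.69-fold higher in PVM. GmaAffx.91461.1.S1_at read 1299, 445 and 1015 in PVM and 17.7, 18.1 and 21.3 in PP. Its PP values sat just around background, and PVM array 2 was the lowest, as for LOC100796662 and LOC547605. Gma.6587.1.S1_at read 794, 694 and 548 in PVM and 38.1, 20.2 and 22.1 in PP. Gma.9622.1.S1_s_at read 1463, 1474 and 941 in PVM and 69.2, 127 and 43.9 in PP. Both were above background on all PP arrays. Gma.8612.1.S1_at read 444, 721 and 511 in PVM and 61.3, 10.9 and 2.51 in PP, where array 1 alone was above background. Gma.13526.1.A1_at read 153, 314 and 201 in PVM and 25.3, 23.6 and 17.1 in PP, with PP array 3 at or below background.

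Names of probe sets give some loose links for the unnamed ones, since the number after the prefix is that of a sequence cluster. A number can cover unlike genes, as Gma.5793 does with probe sets of VSPA, PIP1-7 and PIP1-10. A shared number alone therefore does not tie an unnamed probe set to a gene. The 47 fall under 45 cluster numbers, and Gma.10713 was the only number with more than 1 chosen probe set, with 3. On its brightest, Gma.10713.1.S1_at, the values were 982, 779 and 249 in PVM and 37.7, 57.2 and 16.3 in PP. PVM array 3 was the lowest PVM array on all 3, as for 26 of the 47. Probe sets that share a cluster number may read the same transcript and are not counted as separate genes. Gma.1494.2.S1_x_at read 547, 444 and 509.6 in PVM and 82.1, 68.0 and 18.9 in PP, and shares its cluster number with 2 probe sets of ADR11, a gene named for a soybean transcript that auxin lowers. Those 2 differed by 1.12 and 2.19. Gma.11871.2.S1_at read 299, 442 and 207 in PVM and 29.3, 28.7 and 40.7 in PP, and shares its number with the probe set of LOC100802222 (synonym GmCSyGT3), a gene that the rule leaves out by name and that differed by 2.58. In all, 19 probe sets shared only a cluster number with members. Of these 15 were tested, and 12 of the 15 had a higher PVM mean after normalization, 13 as deposited. Lower after normalization were Gma.12517.2.S1_at at -0.33, Gma.4259.1.S1_at at -0.23 and Gma.597.2.S1_a_at at -0.03. The first of these shares its number with the chosen probe set of LOC547605. The same share over all tested probe sets was not counted, so nothing is read from these counts.

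The PVM arrays did not rank the 47 alike. The highest PVM value was 1.13 to 8.12 times the lowest, with a median of 1.85, beside 1.67 for the 9012 tested probe sets whose PVM values all reach 150. For 16 members it was under 1.5 times and for 7 over 3 times. The widest spread belonged to Gma.5689.3.S1_s_at, which carries 2 gene symbols and read 297, 245 and 1984 in PVM and 14.2, 22.1 and 52.9 in PP. Its PVM mean thus rests on array 3. PVM array 3 gave the lowest PVM value for 26 of the 47 and array 1 and array 2 for 11 and 10. Over all tested probe sets array 3 was the lowest for 27.6%, array 1 for 31.5% and array 2 for 40.9%. After quantile normalization the counts of lowest values were the same, 26, 11 and 10. The 10 with array 2 lowest included all 3 probe sets of LOC100796662 and those of LOC547605, LOC100810929 and LOC100777812.

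**Figure D4:**
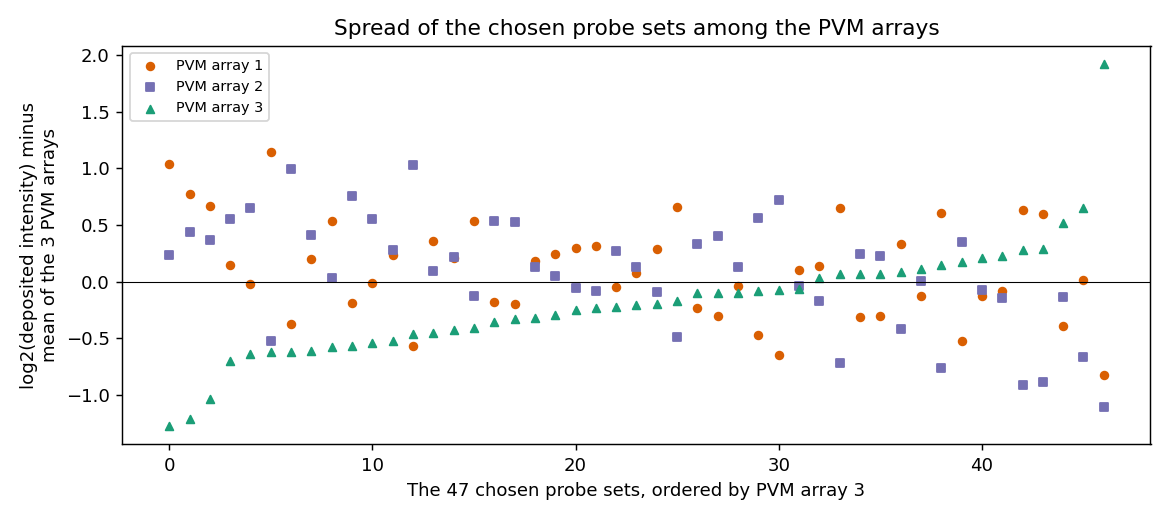
Deviation of each of the 3 PVM arrays (colours and shapes) from their mean on log2 of the deposited intensity, for the 47 chosen probe sets ordered by PVM array 3. PVM array 3 lies lowest for 26 of the 47, and the highest point is Gma.5689.3.S1_s_at on array 3.

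Members differed from other tested probe sets in what the annotation holds about them. A single symbol was assigned to 44.7% of the 47 and to 26.4% of all tested probe sets. Names marking sequence shared between transcripts were carried by 27.7% (13 of 47) and by 16.2% of all tested. These shares are descriptions of a set chosen by level. They were not set against probe sets of like brightness, and the reason for the differences was not tested. Some genes count more than once, since the 21 members with a single symbol name 18 genes.

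The limit of 4 times fell among close neighbours. Just inside were Gma.15687.1.A1_at at 4.03 times, with 3386, 3271 and 2395 in PVM and 558, 457 and 594 in PP, and GmaAffx.49284.1.A1_s_at at 4.04 times. Just outside were GmaAffx.79815.3.S1_s_at at 3.98 times, with 688, 503 and 324 and 81.4, 38.2 and 68.3, and LOC100527809 at 3.96 times. The same limits turned round, with PP over PVM, were met by 6 soybean probe sets (0.016%).

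Probe sets were chosen on the arrays of 2 replicate numbers and read on the arrays of the third, which the choice had not used. The counts describe these larger sets and not the 47. Chosen without replicate 1 were 138 probe sets. On the arrays of replicate 1, PVM was above PP for 118 of them and at least 4 times PP for 71, beside 6.32% of all tested probe sets. Without replicate 2, 130 were chosen, of which 108 were higher and 68 at least 4 times higher on its arrays, beside 7.21% of all tested. Without replicate 3 the counts were 157, 142 and 77, beside 13.7%. The median ratio on the arrays not used was 4.08, 4.40 and 3.95, beside 0.92, 0.86 and 1.11 over all tested probe sets. On those arrays PVM was both at least 150 and at least 4 times PP for 64, 57 and 66 probe sets. The shares of all tested with PVM above PP, or past both limits, were not counted. Nothing is therefore read from the counts of probe sets that were higher or past both limits. The shares over all tested probe sets are not matched for brightness, since their median PVM mean was 146. The members of 47 are those that pass on every array, and by the rule's construction each of these choices contains all 47. The 3 PP arrays were not equally far apart, since arrays 1 and 2 resemble each other most.

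Over all tested probe sets, limma with Benjamini-Hochberg adjustment called 11 probe sets for PVM (adjusted p under 0.05) and 0 for PP. Without single arrays the count for PVM was 0 to 3, each array's removal lowering it, and with the replicate number as a block it was 0. With an intensity trend and robust prior it was 136 for PVM and 13 for PP. Unadjusted, 1653 (6.53%) and 1424 (5.63%) had a p under 0.05. All 47 members were tested and 11 of them were called, against 0.0435% over all tested. The rule used the same contrast, so nothing is read from that count. The other 36 were not called.

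Few probe sets carry a symbol, so lists matched by symbol hold only part of a family, and no lists were made for Kunitz inhibitors or YABBY factors. The list of pathogenesis-related genes held 7 probe sets of 4 genes, of which only the 2 of PR1-7 were tested. Both were at or below background on every PP array and passed the filter through PVM alone, and limma called 1 of them, the chosen one, so nothing is read from that count. PR10 read 0.666, 2.19 and 168 in PVM and 0.465, 4.36 and 7.72 in PP, above background on too few arrays for a test. None of the members fell in the lists for calcium and kinase signalling, hormones, other transcription factor families or transport, where 0 of 25, 9, 28 and 34 tested probe sets were called in either direction by limma. At an unadjusted p under 0.05, limma gave 5 higher and 0 lower, 2 higher and 1 lower, 1 higher and 1 lower, and 8 higher and 2 lower, in that order. Over all tested probe sets 6.53% were higher and 5.63% lower in PVM at that p. ETR2 among the hormone genes and a probe set of LOC547794 (synonym TIP1-6) among the transport genes were at or below background on every PP array. Both passed the filter through PVM alone, so nothing is read from the counts of those lists. Median log2 differences of the lists, in the same order, were 0.20, 0.87, 0.09 and 0.35, beside -0.06 over all tested. The largest differences of single probe sets in these lists were 2.81 for the calmodulin SCAM-4, -1.98 for the ethylene receptor EIN4, 1.61 for NAC018 and 1.88 for the aquaporin PIP2-6. The other SCAM-4 probe set differed by 0.79, and other PIP2-6 probe sets by 0.17 to 1.61. For NAC018 the layers overlapped, with 39.7 on PVM array 1 and 104 on PP array 1.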

How the data were processed

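RNA of 3 PVM and 3 PP samples was hybridised to 6 one-colour Affymetrix arrays, 1 per sample. The deposited values are intensities on a linear scale, 1 per probe set and array, which the authors appear to have scaled, since the 2% trimmed mean was 125 on each array. Their program and its settings are not given in these sources. Fold ratios and log2 differences were computed from these deposited intensities. For log2 differences, log2(intensity + 16) was quantile-normalized over all 61170 probe sets. The brightness of soybean probe sets still differed between arrays as deposited, with medians of 34.7 to 54.3. Tests covered the 25314 soybean probe sets above background on 3 or more of the 6 arrays. Layers were compared by limma (version 3.58.1, R version 4.3.3) with moderated 2-sided tests, no covariates and adjusted p-values by Benjamini-Hochberg, called under 0.05. The script was tested on simulated data. Bounds on folds set the normalized PVM mean against PP values raised to background where they lay under it. The number of arrays limits the precision. The p-values set a difference against the spread between these samples, with variances moderated over all tested probe sets. Each SE is moderated in the same way and is not the spread of that probe set alone.

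Symbols came from the platform's annotation, updated through a RefSeq gene table for Glycine_max_v4.0, in which 8652 of 9047 annotated probe sets were found. No coordinates are given, since the files name no genome build, and no sequences were used here. Every chosen probe set with 1 symbol was named, the 6 unnamed ones with the highest ratio by probe set name, and from each gene list the gene with the largest difference. PR10, single palisade and phloem markers, neighbouring genes and probe sets sharing a cluster number were named after their values were seen. The members, lists and tests were chosen with earlier results of these data known. Alternatives covered the limits, scaling, pseudocount, filter, prior, array weights, a replicate block and leaving out arrays. Choosing on 2 replicate numbers was added after seeing the data.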

Additional observations from a re-analysis of the deposited data

How the results depend on the processing

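The 47 probe sets depended on the limits: 85 met a limit of 3 times, 18 a limit of 6 times and 27 a floor of 300. Scaling arrays to the same soybean median gave 31, of which 27 were among the 47, and quantile-normalized intensities gave 37, of which 36 were. Leaving out 1 array or 1 replicate number gave 61 to 157. These include the 47 by construction, since fewer arrays can only loosen the rule. A floor of 100 (59), averaging PP arrays 1 and 2 (62) and dropping names marked for shared sequence (34) stayed within 1.5 times. The median log2 difference of 3.13 was 3.47 with a pseudocount of 1, 2.42 with 64, and 3.05 to 3.23 without single arrays. The count of 11 probe sets called higher in PVM by limma was 0 to 3 without single arrays, 0 with PP arrays 1 and 2 averaged, 1 with a pseudocount of 1, 54 with 64, 5 with no filter and 136 with an intensity trend and robust prior. The last called 13 higher in PP, and a pseudocount of 64 called 3, beside 0 in the fit used. With the replicate number as a block, 0 were called higher in PVM and the median was 3.13. Same-numbered samples deviated together only weakly (correlations of 0.016, 0.030 and 0.049), so they were taken to share a number and no more, although each sample correlated best with its own number. The causes of these shifts were not tested. Values near background limit the sizes for the 20 members with a PP array at or below it.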
